A study of Mus musculus with 12 samples.

Results

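Limbs of mouse embryos that lack Lmx1b were compared between 11.5 and 12.5 days post coitum (dpc), to describe which genes rose and which fell over this day of outgrowth in the mutant limb. The comparison used 4 of the 12 arrays of the series, chosen by their titles. They were 2 arrays of knockout (KO, Lmx1b -/-) limbs at 11.5 dpc and 2 at 12.5 dpc. The 4 wild-type (WT, Lmx1b +/+) arrays of the same stages served for comparison, and the other 4 arrays, of both genotypes at 13.5 dpc, entered the estimate of the spread, the choice of probe sets, the check of replicate pairs and the descriptions below that name them. All embryos were labelled C57BL/6. Each array was hybridised with biotin-labelled RNA from a pool of limb buds with their girdles, and the duplicates of a group came from different embryos. At 13.5 dpc the distal limb alone was taken. A pool held 6 limbs at 11.5 dpc and 3 at 12.5 dpc by the design text, but 6 for every sample by the extraction notes, and which holds could not be settled. P-values measure the spread between such pools. Each stage has its own series of scan names, so stage and scan series cannot be told apart. The construction of the Lmx1b allele, and the place of the array's probes relative to the deletion, are not stated in the sources used here.

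Lmx1b is a LIM-homeodomain transcription factor of the dorsal limb mesenchyme, switched on by WNT7A from the dorsal ectoderm, and limbs without it form ventral structures on both sides. Between the stages compared, a mouse limb bud elongates under fibroblast growth factors (FGFs) from the apical ectodermal ridge and Sonic hedgehog from its posterior margin. Its core condenses into cartilage, and muscle precursors that migrated in from the somites begin to build contractile fibres. Those processes supply the gene lists used below.

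Values are log2 units of the robust multi-array average (RMA), deposited by the authors, so a difference of 1 is a doubling of signal. The median of all values was 6.28, and medians of single arrays ran from 6.25 to 6.30. Each gene was read by its brightest probe set, and levels are not compared between genes. A change is the mean of both KO 12.5 dpc arrays minus the mean of both KO 11.5 dpc arrays, given with its standard error (SE) and the p-value of limma, adjusted over all 18193 genes by the Benjamini-Hochberg method. A gene is said to have risen or fallen where that adjusted p was under 0.05. In whole-limb RNA, fewer cells of a type and less RNA per cell cannot be told apart.

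The marker genes of the labelled tissue were present with 1 exception. Prrx1, a homeobox gene of limb mesenchyme, lay between 12.14 and 12.56 in the 4 KO arrays, and the forelimb gene Tbx5 between 10.21 and 11.38. The hindlimb gene Pitx1 lay between 5.76 and 6.26 in these arrays, below the median of all values, while the design text speaks of both limb pairs. In the 13.5 dpc arrays it lay between 9.88 and 10.30. For Lmx1b, the brighter of 2 probe sets gave 5.60 and 5.72 in the KO arrays of 11.5 dpc, then 6.50 and 7.02 in those of 12.5 dpc. The WT arrays of both stages gave 9.28 to 9.64. Every KO array of these stages was below every WT array, whereas the KO arrays of 13.5 dpc read 7.48 and 8.88. The KO difference between stages, 1.10 ± 0.35 (SE), did not pass (adjusted p = 0.0594). The dimmer probe set ran from 5.46 to 5.66 over the 4 KO arrays.

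Both 12.5 dpc KO arrays are given throughout, because they differed widely. Of the 6 replicate pairs of the series they lay furthest apart, with a root mean square difference over all genes of 0.356 log2 units. The 5 remaining pairs had 0.140 to 0.267. A KO 12.5 dpc array lay 0.352 to 0.399 from a KO 11.5 dpc array, so the replicates differed about as much as the stages. Between the replicates of KO 12.5 dpc, 353 genes differed by over 1 log2 unit, 305 of them higher in replicate 1 and 48 higher in replicate 2. The same count was 4 at KO 11.5 dpc and 26 at WT 12.5 dpc. Against the mean of the KO 11.5 dpc arrays, replicate 1 had 257 genes over 1 log2 unit higher and 154 lower, and replicate 2 had 72 higher and 203 lower. Replicate 1 thus held more of the large increases.

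The promoters of the muscle genes Ttn, Mylpf and Tnnt2 and of the heat shock gene Hspa1a are printed here for orientation. Replicate 1 minus replicate 2 was 1.79, 1.79, 1.70 and -4.23 in these genes. Other muscle genes differed more, such as Myh8 (3.61) and Myl4 (2.94). The genes printed were picked by hand, Ttn for the largest called rise, and each holds its motif. Each sequence runs 5′ to 3′ from 250 bases before to 50 bases after the start of the gene in RefSeq's GRCm38.p6 assembly. Capitals mark every match to 1 motif per window. In Mylpf and Tnnt2 this is the E-box CAGCTG, a form bound by myogenic factors, in Ttn the MEF2-type motif of CTA and TAG with any 4 bases between, and in Hspa1a the heat shock element core GAANNTTC. All 3 motifs read the same on both strands, and no match overlaps another. Both E-boxes of Tnnt2 are in capitals.
Ttn, chr2:76982498-76982797, minus strand: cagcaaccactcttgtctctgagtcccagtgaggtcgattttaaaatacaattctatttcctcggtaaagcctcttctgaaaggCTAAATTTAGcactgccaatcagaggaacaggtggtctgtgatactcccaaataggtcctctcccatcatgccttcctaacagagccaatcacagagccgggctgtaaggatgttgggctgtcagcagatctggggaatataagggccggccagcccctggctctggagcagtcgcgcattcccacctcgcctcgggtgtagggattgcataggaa
Mylpf, chr7:127211358-127211657, plus strand: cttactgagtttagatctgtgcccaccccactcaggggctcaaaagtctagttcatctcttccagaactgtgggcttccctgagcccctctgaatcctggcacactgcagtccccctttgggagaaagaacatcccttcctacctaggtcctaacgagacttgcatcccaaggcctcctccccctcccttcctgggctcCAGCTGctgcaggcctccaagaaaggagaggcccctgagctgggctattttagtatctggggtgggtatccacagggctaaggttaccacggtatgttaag
Tnnt2, chr1:135836084-135836383, plus strand: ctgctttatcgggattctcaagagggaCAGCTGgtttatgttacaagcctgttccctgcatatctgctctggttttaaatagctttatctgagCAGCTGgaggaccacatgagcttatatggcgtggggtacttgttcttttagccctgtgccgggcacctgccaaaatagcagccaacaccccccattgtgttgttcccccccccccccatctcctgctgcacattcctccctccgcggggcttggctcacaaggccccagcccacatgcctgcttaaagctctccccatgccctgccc
Hspa1a, chr17:34972107-34972406, minus strand: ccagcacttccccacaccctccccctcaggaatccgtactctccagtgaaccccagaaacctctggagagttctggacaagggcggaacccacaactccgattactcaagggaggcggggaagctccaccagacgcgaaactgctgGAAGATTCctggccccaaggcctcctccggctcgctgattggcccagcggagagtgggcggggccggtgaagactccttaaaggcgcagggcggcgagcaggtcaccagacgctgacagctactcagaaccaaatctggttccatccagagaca
The motif starts 166 bases before the gene start in Ttn, 51 in Mylpf, 223 and 157 in Tnnt2 and 104 in Hspa1a. Of all 32851 promoters in the table, which belong to 27025 genes, 16.3% hold CAGCTG, 3.69% the MEF2-type motif and 7.86% GAANNTTC. Of the 30 sarcomere genes measured, 26 were in the table, and 12 of these hold CAGCTG and 3 hold the MEF2-type motif. Of the 15 heat shock genes, 12 were in the table, and 9 of these hold GAANNTTC. These list counts are of genes, and a match in any promoter of a gene counts. They therefore differ in unit from the shares of promoters. A match describes the letters of the window, not a bound site.

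From 11.5 to 12.5 dpc, 1131 genes rose and 1923 fell in KO limbs, which is 6.22% and 10.6% of all genes and 16.8% together. The median size was 0.52 log2 units among those that rose and -0.51 among those that fell, beside a median of -0.05 over all genes. Of the genes that passed, 66 rose and 100 fell by at least 1 log2 unit. All of the 3054 had both 12.5 dpc arrays on the same side of both 11.5 dpc arrays, as had 23.4% of all genes upwards and 35.6% downwards. A group left with 1 array adds nothing to the estimate of the spread. Leaving out a KO 12.5 dpc array thus takes the most unequal pair out of that estimate, whereas leaving out a KO 11.5 dpc array keeps it. Counts and calls from such fits, here and below, therefore cannot rank the arrays, and they rest on 1 pool in that group. Without KO 11.5 dpc replicate 1, 348 genes rose and 640 fell, and without replicate 2, 204 rose and 258 fell. Fitted to the 4 KO arrays alone, with their own spread, no gene passed (smallest adjusted p = 0.0559), although 1744 genes were higher and 3093 lower at an unadjusted p under 0.05. Of 160 genes that passed and were named or stand on a list below, 32 kept their call without any 1 array. Leaving out KO 11.5 dpc replicate 1 or 2 ended 104 or 123 of these calls, and leaving out KO 12.5 dpc replicate 1 or 2 ended 59 or 29. Each of the other 8 arrays, which enter this comparison through the estimate of the spread alone, ended 9 to 40 of them when left out.

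The largest called increases were in Ttn, Robo2, Aldh1a2 and Neb. Ttn, encoding the giant sarcomere protein titin, went from 7.21 and 7.16 in the KO 11.5 dpc arrays to 10.44 and 8.65 in replicates 1 and 2 of 12.5 dpc. Both 12.5 dpc arrays were above both earlier ones, as the naming rule required, replicate 1 by far the most. The mean rise was 2.36 ± 0.42 (SE, 5.13-fold, adjusted p = 0.00590). Robo2, a receptor for the guidance cue SLIT, went from 4.51 and 3.93 to 6.40 and 6.63, so that both later arrays agreed on the rise of 2.30 ± 0.19 (4.91-fold, adjusted p = 0.000385). Aldh1a2, the main retinoic acid synthesising enzyme of the embryo, went from 7.85 and 8.48 to 10.72 and 9.90, a rise of 2.14 ± 0.38 (adjusted p = 0.00581). Neb, encoding nebulin of the thin filament, went from 5.97 and 5.99 to 8.89 and 7.04 (1.99 ± 0.45, adjusted p = 0.0150). The earlier values of Robo2 and Neb were below the median of all values.

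Genes that rose almost equally in both later arrays included Cep295, a centriole gene, which was 1.64 and 1.82 above the 11.5 dpc mean in replicates 1 and 2. Slc16a4, a member of the monocarboxylate transporter family, was 1.57 and 1.75 above it. Maf, encoding a basic leucine zipper factor, was 1.62 and 1.40 above it, and Gt(ROSA)26Sor, a broadly transcribed noncoding locus, 1.53 and 1.36. Their mean rises ran from 1.45 to 1.73, with adjusted p from 0.000274 to 0.00105. Clstn2, a calsyntenin, rose by 1.59, the noncoding RNA gene Snhg14 by 1.45 and the uncharacterised transcript 2310067E19Rik by 1.73. The cartilage cytokine gene Cytl1 (1.76), the embryonic myosin gene Myh3 (1.71), the mechanosensitive channel gene Piezo2 (1.64) and Mylpf (1.51), encoding the fast muscle regulatory light chain, completed the 15. Each of these 4 rose further in replicate 1, where they were 2.32 to 2.66 above the 11.5 dpc mean, than in replicate 2, where they were 0.62 to 0.96 above it.

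The largest called decreases were in Sim2, Hoxb5, Irx3, Pkdcc and Fgf8. Sim2, a bHLH-PAS transcription factor, went from 9.17 and 8.86 to 6.29 and 5.99, a fall in both arrays with a mean of -2.87 ± 0.21 (7.29-fold lower, adjusted p = 0.000219). Hoxb5 went from 7.47 and 7.28 to 4.67 and 4.99 (-2.54 ± 0.40, adjusted p = 0.00364). Irx3, an Iroquois factor of the proximal and anterior bud, went from 10.52 and 10.23 to 8.38 and 7.31 (-2.53 ± 0.35, adjusted p = 0.00225). Here replicate 2 had fallen further. Pkdcc, a secreted kinase gene needed for long bone growth, went from 11.63 and 11.74 to 9.83 and 9.14 (-2.20 ± 0.41, adjusted p = 0.00741). Fgf8, the FGF of the apical ridge, went from 7.85 and 7.71 to 5.11 and 6.17, the lower value in replicate 1 (-2.13 ± 0.45, 4.39-fold lower, adjusted p = 0.0118). The later values of Hoxb5 and Fgf8 were below the median of all values.

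The other 10 of the 15 largest decreases lay between -1.91 and -1.66. Further patterning genes among them were the nuclear receptor gene Nr2f1 (-1.91), Hoxc8 (-1.82), Hoxb3 (-1.80) and Meis1 (-1.73), a cofactor of HOX proteins that marks the proximal limb. Pax1, a paired-box gene of the shoulder girdle, went from 7.11 and 7.22 to 5.58 and 5.38 (-1.69 ± 0.38). The rest were the cytochrome gene Cyb561 (-1.86), the immunoglobulin superfamily gene Igdcc3 (-1.78), the tight junction gene Cldn6 (-1.67), the fibroblast protease gene Fap (-1.67) and the imprinted gene Peg10 (-1.66). All 15 were lower in both later arrays, which the rule for naming them required. Of these 10, Fap moved most unequally, with changes of -1.09 in replicate 1 and -2.26 in replicate 2.

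Of the 30 genes named by size, 16 kept their call without any 1 array. They were Robo2, Aldh1a2, Cep295, 2310067E19Rik, Slc16a4, Clstn2, Maf, Snhg14 and Gt(ROSA)26Sor among those that rose, and Sim2, Hoxb5, Irx3, Cyb561, Hoxb3, Cldn6 and Peg10 among those that fell. Without replicate 1 of KO 12.5 dpc the calls of Cytl1 (adjusted p = 0.0676) and Mylpf (adjusted p = 0.0801) ended, and without replicate 2 those of Nr2f1 (adjusted p = 0.109) and Meis1 (adjusted p = 0.0577). Without KO 11.5 dpc replicate 1 or 2, 12 and 14 of the 30 calls ended. A second probe set of Piezo2 fell by 0.46 (adjusted p = 0.0349) and one of Slc16a4 lay at -0.41 without passing, so these genes' probe sets disagree in direction.

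**Figure D1:**
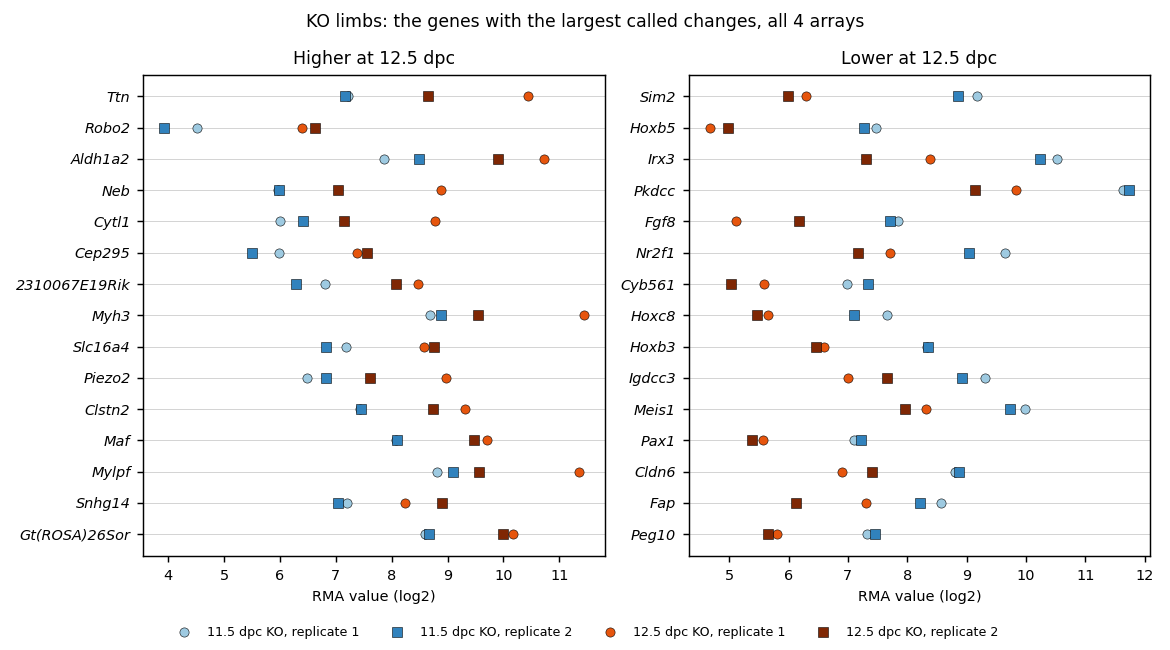
RMA values (log2 units) of the 30 genes with the largest called changes in each of the 4 KO arrays, with those that rose in one panel and those that fell in the other. In Ttn the replicate 1 array of 12.5 dpc lies at 10.44 and replicate 2 at 8.65, both above the 11.5 dpc arrays, whereas in Sim2 the later arrays lie close together at 6.29 and 5.99.

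The difference between the 2 KO 12.5 dpc arrays was largest in a few recognisable genes, given here as a description with no test. Myh8, the perinatal myosin, lay at 4.71 and 5.12 at 11.5 dpc, and at 8.71 in replicate 1 and 5.11 in replicate 2 of 12.5 dpc. Replicate 2 was close to the earlier arrays, and replicate 1 stood alone. The same order held for Myh7, the slow myosin (5.66 and 5.39, then 8.43 and 5.66), and Sln, the calcium pump inhibitor sarcolipin (6.39 and 6.51, then 8.79 and 6.20). It also held for Myl4, the embryonic light chain (7.80 and 8.10, then 10.51 and 7.57), and the lectin gene Chodl (5.00 and 5.15, then 7.59 and 4.99). A pair of genes moved in opposite directions in the replicates. Col14a1, a fibril-associated collagen, went from 6.49 and 6.47 to 8.77 and 5.52, and Agtr2, an angiotensin receptor, from 8.32 and 8.33 to 9.68 and 7.12.

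In the other direction, replicate 2 held the inducible HSP70 gene Hspa1a at 9.36, against 5.39 and 5.36 at 11.5 dpc and 5.13 in replicate 1. Its near-identical neighbour copy Hspa1b lay at 9.81, against 7.18, 7.07 and 7.34. The promoter windows of both are the same at 296 of 300 positions, and probes can read both copies, so these values are uncertain as to the gene. Hemgn, an erythroid nuclear protein gene, lay at 9.54 in replicate 2 and 6.90 in replicate 1, with 8.65 and 8.79 at 11.5 dpc. Sall4, a zinc finger gene of the early bud, lay at 7.91 and 6.11, with 8.35 and 8.33 before. The apoptosis gene Pmaip1 (10.25 and 8.44) and the noncoding Snhg3 (8.56 and 6.83) were likewise higher in replicate 2. Mid1, a ubiquitin ligase gene that borders the pseudoautosomal region, was at 9.81 in replicate 2 and 6.55 in replicate 1.

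Genes of the sex chromosomes differed between the same arrays. Xist, the RNA of the inactive X chromosome, lay at 12.44 and 11.18 in the KO 11.5 dpc arrays, at 6.49 in replicate 1 and at 12.45 in replicate 2 of 12.5 dpc. The Y-linked gene Uty lay at 6.33 and 7.52, then at 8.23 and 4.71, and Kdm5d at 6.62 and 7.85, then at 8.08 and 3.16. Replicate 1 was thus low in Xist and high in the Y-linked genes, and replicate 2 the reverse, with the 11.5 dpc pools between. The labels used here give no sex. The WT 12.5 dpc arrays differed in Xist too, at 6.72 and 11.53. The part of sex or of heat shock gene levels in the other differences between the replicates was not tested.

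**Figure D2:**
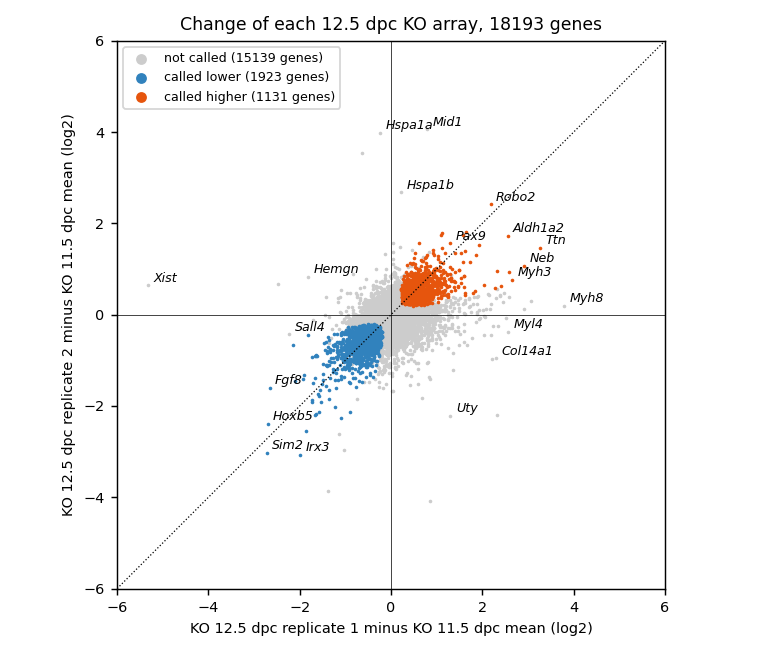
Change of each of 18193 genes in KO limbs, as replicate 1 of 12.5 dpc minus the mean of both 11.5 dpc arrays (horizontal, log2 units) against the same for replicate 2 (vertical); both axes share the 11.5 dpc arrays, and the dotted line marks equal change. Called genes lie in the upper right and lower left, while Myh8 (3.80 and 0.19), Hspa1a (-0.24 and 3.99) and Xist (-5.31 and 0.65) lie far from the line.

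Muscle genes were higher as a group in replicate 1 of 12.5 dpc and hardly so in replicate 2. Over all genes 6.22% rose and 10.6% fell, and each list count below is to be read against these shares. Of 30 measured genes of the sarcomere and its membranes, 5 rose and 0 fell. Their median change was 1.02, against -0.05 over all genes, made of a median of 2.07 in replicate 1 and 0.03 in replicate 2. The 5 were Ttn, Neb, Myh3, Mylpf and Tnnt2. Myh3 went from 8.68 and 8.88 to 11.44 and 9.54 (1.71 ± 0.44, adjusted p = 0.0256). Mylpf went from 8.81 and 9.09 to 11.35 and 9.57 (1.51 ± 0.43, adjusted p = 0.0388). Tnnt2, the cardiac troponin T that embryonic skeletal muscle also makes, went from 7.80 and 7.88 to 10.12 and 8.42 (1.43 ± 0.41, adjusted p = 0.0396). In all 5 both later arrays were above both earlier ones, as in every gene that rose. Acta1, encoding skeletal actin, lay at 8.57 and 8.82, then at 11.29 and 9.07, and missed the threshold (adjusted p = 0.0746). A fit without either KO 12.5 dpc array leaves 1 pool in that group, so no count of called list members is given from it, here or for the lists below. The calls of Mylpf and Tnnt2 ended without replicate 1, with rises of 0.62 and 0.58 in replicate 2 alone.

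The regulators of the muscle lineage did not follow the sarcomere genes. Of 19 measured, 0 rose and 1 fell, with a median of -0.06. Lbx1, a homeobox gene of migrating muscle precursors, went from 8.09 and 7.99 to 7.32 and 7.03 (-0.86 ± 0.14, adjusted p = 0.00466), and it kept this call without any 1 array. Myod1, the myogenic determination factor, lay at 10.20 and 10.28, then at 10.15 and 9.59, and Myog, which drives differentiation, at 10.31 and 10.31, then at 11.07 and 10.00. Pax7, a gene of muscle progenitors, lay at 7.21 and 7.10, then at 6.89 in replicate 1 and 5.56 in replicate 2. None of these 3 passed (adjusted p from 0.205 to 0.660). By replicate, the list's median was -0.07 in replicate 1 and -0.37 in replicate 2.

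Of 24 measured cartilage genes 8 rose and 0 fell, with a median change of 0.61, which was 0.94 in replicate 1 and 0.30 in replicate 2. Col2a1, the main cartilage collagen, went from 11.80 and 12.02 to 12.94 and 12.46 (0.79 ± 0.20, 1.73-fold, adjusted p = 0.0245). Acan, encoding aggrecan, went from 6.29 and 6.48 to 8.41 and 7.03 (1.34 ± 0.38, 2.52-fold, adjusted p = 0.0382). Col11a1, a minor fibril collagen of cartilage, went from 9.37 and 9.59 to 10.96 and 10.10 (1.05 ± 0.29, adjusted p = 0.0330). In these 3, as in every gene that rose, both later arrays were above both earlier ones, with replicate 1 ahead.

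Fgfr3, the FGF receptor of chondrocytes, differed in that replicates 1 and 2 rose nearly alike, from 8.30 and 8.35 to 9.23 and 9.12 (0.85 ± 0.12, adjusted p = 0.00279). Of the 8 cartilage genes it was the one that kept its call without any 1 array, although its other probe set lay at -0.47 without passing. Sox6, a partner of SOX9, rose by 0.69, the ubiquitin ligase gene Wwp2 by 0.65 and Comp, encoding cartilage oligomeric matrix protein, by 0.54. Sox9 itself, the master factor of chondrogenesis, lay at 10.15 and 10.36, then at 10.77 and 10.57, and missed the threshold (0.42 ± 0.15, adjusted p = 0.0836). Matn4 (1.45), Cnmd (1.47) and Matn1 (1.21) also did not pass, and for Matn1 replicate 2 at 5.93 lay between the earlier arrays at 5.34 and 6.06. The calls of Cytl1, Acan, Col11a1, Col2a1, Sox6 and Comp ended without KO 12.5 dpc replicate 1 (adjusted p from 0.0676 to 0.203). Their rises in replicate 2 alone ran from 0.36 in Comp to 0.94 in Cytl1.

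Collagens gave 5 higher and 1 lower of 29, with a median of 0.32 that was 0.68 in replicate 1 and -0.09 in replicate 2. Beside Col2a1 and Col11a1, which are also on the cartilage list, the transmembrane collagen gene Col25a1 rose by 1.05 ± 0.16, Col6a3 by 1.02 and Col27a1 by 0.59. Col25a1 kept its call without any 1 array, but its other probe set lay at 0.17 without passing. Col18a1, a basement membrane collagen that is the source of endostatin, fell by 0.65, nearly alike in both arrays (-0.66 and -0.63). The calls of Col2a1, Col11a1, Col6a3 and Col27a1 ended without KO 12.5 dpc replicate 1. Their rises were 1.03, 1.48, 1.61 and 0.73 in replicate 1, and 0.55, 0.62, 0.42 and 0.45 in replicate 2.

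Of 19 tendon and ligament genes 1 rose and 1 fell, Egr2 (0.47), a zinc finger factor, and Six2 (-0.58), a homeobox gene. Neither count is above the share over all genes (6.22% and 10.6%). The tendon factor Scx lay at 7.41 and 7.68, then at 8.14 and 7.57, and its target Tnmd at 4.80 and 5.10, then at 5.72 and 4.64, and neither passed. Replicate 2 lay within or below the earlier arrays in both. The list's median was 0.83 in replicate 1 and 0.02 in replicate 2, and the call of Egr2 ended without replicate 1. Of 14 small leucine-rich proteoglycan genes, which encode regulators of collagen fibrils, 0 passed. Aspn (1.67, adjusted p = 0.111) and Dcn (0.93, adjusted p = 0.126) lay highest, by 3.06 and 1.71 in replicate 1 and by 0.29 and 0.16 in replicate 2. The median of this list was 0.66 in replicate 1 and 0.07 in replicate 2.

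Joint genes split. Of 15 genes of the joint interzone 4 rose, Creb5 (1.11) and Erg (1.06), both transcription factors, the heparan sulphatase gene Sulf1 (1.02) and the zinc finger gene Trps1 (0.38). Osr2 (-0.60) and Wnt4 (-0.70) fell. Erg, which endothelium also expresses, went from 7.75 and 7.99 to 9.26 and 8.60 (adjusted p = 0.00806). The joint growth factor gene Gdf5 lay at 8.32 and 8.60, then at 9.79 and 8.73, and did not pass (adjusted p = 0.141). The calls of Creb5 and Trps1 ended without KO 12.5 dpc replicate 1, and that of Osr2 without replicate 2. Of 15 growth plate and bone genes only Alpl, encoding alkaline phosphatase, passed, and it fell by 0.54 (adjusted p = 0.0256, and 0.109 without KO 12.5 dpc replicate 1).

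The HOX genes of the list that fell belong to the middle of their clusters. Of 21 measured genes on the HOX list 0 rose and 5 fell, and beside Hoxb5 and Hoxc8 these were Hoxc6 (-1.61), Hoxb6 (-1.26) and Hoxa7 (-0.59). Hoxc8 went from 7.66 and 7.11 to 5.66 and 5.47 (-1.82 ± 0.38, adjusted p = 0.0119). Hoxb3, not on the list, went from 8.33 and 8.34 to 6.60 and 6.47. Hoxc5 and Hoxc4 moved unequally and did not pass. Hoxc5 went from 10.06 and 9.61 to 8.44 in replicate 1 and 5.98 in replicate 2 (-2.62, adjusted p = 0.0816). Of the hand plate genes, Hoxd13 lay at 12.03 and 12.15, then at 12.53 and 12.62, without passing (adjusted p = 0.0740). Hoxa13 lay at 8.76 and 9.17, then at 8.66 and 8.88, and did not pass. Hoxb5 kept its call without any 1 array, and the calls of Hoxc6 and Hoxa7 ended without KO 12.5 dpc replicate 2 (adjusted p = 0.0530 and 0.0964), that of Hoxa7 also without replicate 1 (adjusted p = 0.0586). Replicates 1 and 2 had list medians of -0.31 and -0.09.

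Of 17 genes of the proximal limb and girdle 6 fell and 1 rose, with a median of -0.54. Meis1 went from 9.99 and 9.74 to 8.32 and 7.96, and Meis2, its paralogue, fell by 1.62. Emx2, a homeobox gene needed for the scapula, went from 7.41 and 7.07 to 5.83 and 6.13 (-1.26 ± 0.25, adjusted p = 0.00886). Alx4, an aristaless-related gene of the anterior bud, went from 6.18 and 6.42 to 5.33 and 5.27 (adjusted p = 0.00204). Its later values were below the median of all values. Irx3 and Pax1 are given above. The gene that rose was Pax9, a paired-box gene of the anterior digit region and girdle. It went from 7.60 and 7.78 to 8.98 and 9.25 (1.43 ± 0.15, 2.69-fold, adjusted p = 0.00115). Pax9, Irx3 and Alx4 kept their calls without any 1 array, but the other 2 probe sets of Pax9 lay at -0.18 and 0.21 without passing. The calls of Meis1 and Meis2 ended without KO 12.5 dpc replicate 2.

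Limb mesenchyme markers gave 3 higher and 3 lower of 20, beside 6.22% and 10.6% over all genes. Tbx5 (0.71), Prrx1 (0.37) and the WNT effector gene Tcf4 (0.36) rose, and Tbx2 (-0.64), Meis1 and Meis2 fell. Their median was 0.05. The calls of Tbx5, Tbx2 and Tcf4 ended without KO 12.5 dpc replicate 1 (adjusted p from 0.0549 to 0.144), and those of Meis1, Meis2 and Tcf4 without replicate 2 (adjusted p from 0.0577 to 0.0781).

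Of 26 genes of the ridge and of FGF signalling 8 fell and 3 rose, with a median of -0.13. Among ligands, Fgf8 was the 1 ridge FGF that passed, and Fgf9 lay at -0.48 without passing. Fgf10, the mesenchymal ligand that maintains the ridge, went from 6.61 and 6.82 to 5.70 and 6.35 (-0.69 ± 0.20, adjusted p = 0.0438). Among receptors, Fgfr3 (0.85) and Fgfr2 (0.71) rose, and Fgfr1 lay at -0.20 without passing. The ridge transcription factor genes Sp8 (-1.13), Sp6 (-0.97) and Dlx3 (-0.85) fell. Among FGF targets and feedback inhibitors, Etv4 (-0.83), Spry4 (-0.68) and Spred2 (-0.34) fell, and Spred1 (0.36) rose. Spry4 went from 9.06 and 9.27 to 8.53 and 8.44 (-0.68 ± 0.11, adjusted p = 0.00368), with both later arrays low. Sp6, Dlx3 and Fgfr3 kept their calls without any 1 array. Without KO 12.5 dpc replicate 1 the calls of Sp8, Fgf10, Fgfr2, Spred1 and Spred2 ended.

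In the hedgehog pathway the ligand and a transcriptional target moved down and other targets moved up. Shh, made by the zone of polarising activity, went from 8.24 and 7.96 to 6.69 and 7.26 (-1.13 ± 0.28, 2.18-fold lower, adjusted p = 0.0233). Gli1, a transcription factor that hedgehog signalling induces, went from 8.26 and 8.34 to 7.73 and 7.41 (-0.73 ± 0.11, adjusted p = 0.00274). The signal transducer gene Smo (-0.38) and the inhibitor gene Sufu (-0.36) fell as well. Ptch1, the receptor and a target, went from 10.78 and 10.78 to 11.30 and 11.16 (0.45 ± 0.10, adjusted p = 0.0168), and Hhip, which binds the ligand, from 5.90 and 6.00 to 7.18 and 6.55 (0.92 ± 0.24, adjusted p = 0.0275). In Shh, Gli1, Ptch1 and Hhip the later arrays did not overlap the earlier ones, as in every gene that passed.

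In all, 5 of 24 genes of hedgehog signalling and the anteroposterior axis rose and 8 fell. The others that rose were Pax9, Bmp2 (0.98) and Sall1 (0.64), and the others that fell were Asb4 (-1.29), Alx4, Grem1 (-0.96) and Tbx2. Gli1, Alx4 and Pax9 kept their calls without any 1 array. Those of Shh, Ptch1, Hhip, Asb4, Grem1, Tbx2 and Sufu ended without KO 12.5 dpc replicate 1, and that of Sall1 without replicate 2.

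Bone morphogenetic protein (BMP) genes moved in both directions, 8 up and 7 down of 31 with those of TGF-beta signalling. Among ligands, Bmp2 went from 8.14 and 8.36 to 9.35 and 9.11 (0.98 ± 0.19, adjusted p = 0.00789), whereas Bmp4 went from 10.52 and 10.54 to 9.46 and 9.80 (-0.90 ± 0.21, adjusted p = 0.0190). Bmp7 (-0.41) and Tgfb1 (-0.67) fell. All 4 receptor genes that passed rose, Acvr1 (0.75), Acvr2a (0.60), Bmpr2 (0.50) and Bmpr1a (0.49). The antagonist genes diverged. Fst, encoding follistatin, went from 8.54 and 8.50 to 10.06 and 9.32 (1.17 ± 0.24, adjusted p = 0.0109), and Grem1, the BMP antagonist of the ridge feedback loop, from 7.43 and 7.40 to 6.15 and 6.76 (-0.96 ± 0.26, adjusted p = 0.0315). The decoy receptor gene Bambi (0.51) and the target Id3 (0.41) rose, and the inhibitory Smad6 (-0.61), Smad7 (-0.45) and the antagonist gene Smoc1 (-0.65) fell. Smad6 and Acvr2a kept their calls without any 1 array, and those of Bmp4, Grem1, Bmpr2, Smad7, Id3 and Smoc1 ended without KO 12.5 dpc replicate 1 (adjusted p from 0.0602 to 0.191) and that of Bmp7 without replicate 2 (adjusted p = 0.107). Medians of the list were 0.33 in replicate 1 and 0.04 in replicate 2.

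Of 33 WNT pathway genes 6 fell and 3 rose, a balance near that over all genes (10.6% and 6.22%). The ectodermal ligands Wnt6 (-0.72) and Wnt7b (-0.66) and the joint ligand Wnt4 (-0.70) fell, and Wnt5a, the ligand of distal outgrowth, went from 11.37 and 11.42 to 11.92 and 11.96 (0.54 ± 0.12, adjusted p = 0.0158). Among R-spondins, which strengthen WNT signals, Rspo2 went from 8.34 and 8.03 to 6.28 and 6.86 (-1.62 ± 0.25, adjusted p = 0.00364) and kept its call without any 1 array, and Rspo4 fell by 0.59. Rspo1 went from 8.93 and 8.66 to 7.76 and 5.83 and did not pass (adjusted p = 0.0930). The nuclear effector Lef1 went from 9.94 and 10.00 to 9.38 and 9.48 (-0.54 ± 0.10, adjusted p = 0.00615). The R-spondin receptor gene Lgr5 (0.75) and the co-receptor gene Lrp6 (0.52) rose, but both calls ended without KO 12.5 dpc replicate 1 (adjusted p = 0.222 and 0.116), as did that of Rspo4 (adjusted p = 0.102). The WNT median was -0.08 in replicate 1 and -0.32 in replicate 2.

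Genes of the dorsoventral axis gave 2 higher and 4 lower of 11, beside 6.22% and 10.6% over all genes. En1, the ventral ectoderm factor, went from 5.35 and 5.67 to 4.70 and 4.52 (-0.91 ± 0.16, adjusted p = 0.00642), below the median of all values throughout. The LIM-only genes Lmo1 (-0.87) and Lmo2 (-0.84) and Rspo2 fell, and Lhx9 (0.57), a LIM-homeobox gene of the distal mesenchyme, and Bmpr1a rose. Wnt7a, the dorsal ectodermal ligand, lay at 0.17 without passing. The calls of Lmo1 and Lmo2 ended without KO 12.5 dpc replicate 1 (adjusted p = 0.0893 and 0.213) and that of Lhx9 without replicate 2 (adjusted p = 0.177). Members of the list had a median of -0.19 in replicate 1 and 0.08 in replicate 2.

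In the retinoid pathway 1 gene rose and 4 fell of 16. Against the rise of the synthesising enzyme Aldh1a2, the retinol uptake receptor gene Stra6 went from 9.18 and 9.23 to 8.51 and 8.30 (-0.80 ± 0.12, adjusted p = 0.00313). The degrading enzyme gene Cyp26a1 went from 7.23 and 7.38 to 6.64 and 6.95 (-0.51 ± 0.13, adjusted p = 0.0231). The nuclear receptor gene Rara (-0.57) and the retinol carrier gene Rbp4 (-0.88) fell. Stra6 and Aldh1a2 kept their calls without any 1 array. Cyp26a1 lost its call without KO 12.5 dpc replicate 1, and Rara and Rbp4 lost theirs without replicate 2.

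Axon guidance genes gave 7 higher and 5 lower of 30, beside 6.22% and 10.6% over all genes. The receptor genes Robo2 (2.30), Robo1 (0.68), Epha3 (0.55), Epha7 (0.68) and Nrp1 (0.36) and the semaphorin genes Sema3d (0.89) and Sema5a (0.85) rose. Gdnf, a survival and guidance factor for motor axons, went from 6.79 and 6.30 to 5.66 and 4.42 (-1.51 ± 0.40, adjusted p = 0.0289), and this call ended without replicate 2 (adjusted p = 0.117). Plxnd1 (-0.47), Sema3f (-0.33), Efnb1 (-0.33) and Ephb3 (-0.29) fell. Robo2 kept its call without any 1 array, and those of Sema5a, Sema3f, Nrp1, Plxnd1, Epha7, Ephb3 and Efnb1 ended without KO 12.5 dpc replicate 1. Those of Nrp1, Plxnd1, Ephb3 and Efnb1 ended without replicate 2 too.

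Of 31 cell cycle genes 2 rose and 4 fell, near the shares over all genes (6.22% and 10.6%), with a median of -0.08. Mki67, the proliferation marker, went from 11.61 and 11.46 to 12.12 and 12.14 (0.60 ± 0.09, adjusted p = 0.00313), and the cyclin gene Ccne2 rose by 0.64. Lin28a, a pluripotency-associated RNA-binding factor that blocks let-7, went from 5.40 and 5.71 to 3.83 and 4.63 (-1.33 ± 0.27, adjusted p = 0.0101). It lay below the median of all values throughout. Myc (-0.66), Ccne1 (-0.59) and E2f1 (-0.37) fell. Mki67 kept its call without any 1 array, that of E2f1 ended without KO 12.5 dpc replicate 1 (adjusted p = 0.208) and those of Myc and Ccne2 ended without replicate 2 (adjusted p = 0.213 and 0.0506). In replicate 1 the list's median was -0.18, and in replicate 2 it was 0.01. Of 11 cell cycle inhibitors and cell death genes Rb1 (0.79) and Bcl2l11 (0.29) rose and Bmp4 fell. These 3 calls ended without KO 12.5 dpc replicate 1. Bcl2l11 lost its call without replicate 2 as well (adjusted p = 0.0808).

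Of 15 heat shock genes 0 rose and 1 fell, Hsph1 (-0.39, adjusted p = 0.0269, and 0.0702 without KO 12.5 dpc replicate 1). The mean changes of Hspa1a and Hspa1b, 1.88 and 1.45, did not pass (adjusted p = 0.206 and 0.119). Heat shock genes had a median of -0.11 in replicate 1 and -0.14 in replicate 2. Of 21 immediate early genes 3 rose and 2 fell, beside 6.22% and 10.6% over all genes, which hold for the other lists here too. Fos went from 6.35 and 6.66 to 7.25 and 7.48 (0.86 ± 0.12, adjusted p = 0.00225) and kept its call without any 1 array, Ccn1 rose by 0.98 and Egr2 by 0.47, and Klf2 (-0.77) and Ier2 (-0.55) fell. The calls of Egr2 and Ier2 ended without KO 12.5 dpc replicate 1, and that of Klf2 without replicate 2. Of 16 hypoxia and glycolysis genes Slc2a1, a glucose transporter gene, rose by 0.58 and Egln3 fell by 0.49, and both calls ended without replicate 2 (adjusted p = 0.137 and 0.0703).

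Markers of other cell types in the pools are given beside the shares over all genes, 6.22% higher and 10.6% lower. Of 18 macrophage genes 6 fell and 0 rose. C1qc, a complement gene, went from 7.42 and 7.44 to 6.71 and 6.62 (-0.77 ± 0.09, adjusted p = 0.00140), and Adgre1, a macrophage surface receptor gene, from 7.91 and 7.67 to 7.17 and 7.07 (-0.67 ± 0.13, adjusted p = 0.00784). Of 23 surface ectoderm genes 6 fell and 0 rose, among them Cldn6, the simple keratin gene Krt8 (-1.01) and Epcam (-0.60). C1qc and Cldn6 kept their calls without any 1 array. Without KO 12.5 dpc replicate 1 the calls of the macrophage genes Cd68 and Laptm5 and of the ectoderm genes Krt8 and Esrp1 ended. Macrophage genes had a median of -0.42 in replicate 1 and -0.23 in replicate 2, and ectoderm genes -0.36 and -0.50. Of 20 endothelial genes 4 fell, with Prox1 (-0.72), Sox18 (-0.67), Ramp2 (-0.66) and Cdh5 (-0.62), and 1 rose, Erg. Of 15 Schwann cell and melanocyte genes 4 fell, Sox10 (-0.71), Foxd3 (-0.62), Cdh19 (-0.62) and Dct (-0.41), and Mitf (0.61) rose. The calls of Foxd3 and Mitf ended without replicate 1 (adjusted p = 0.0586 and 0.0755), and those of Sox10, Foxd3, Cdh19 and the endothelial Cdh5 without replicate 2 (adjusted p from 0.0503 to 0.153). Of 15 neuronal genes 1 fell, Mnx1 (-0.68), and of 12 erythroid genes 0 passed, neither above the shares over all genes. Mnx1 went from 4.91 and 5.02 to 4.16 and 4.42, below the median of all values throughout. The erythroid median was -0.40 in replicate 1 and 0.19 in replicate 2. The part of these cell types in the other changes was not tested.

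**Figure D3:**
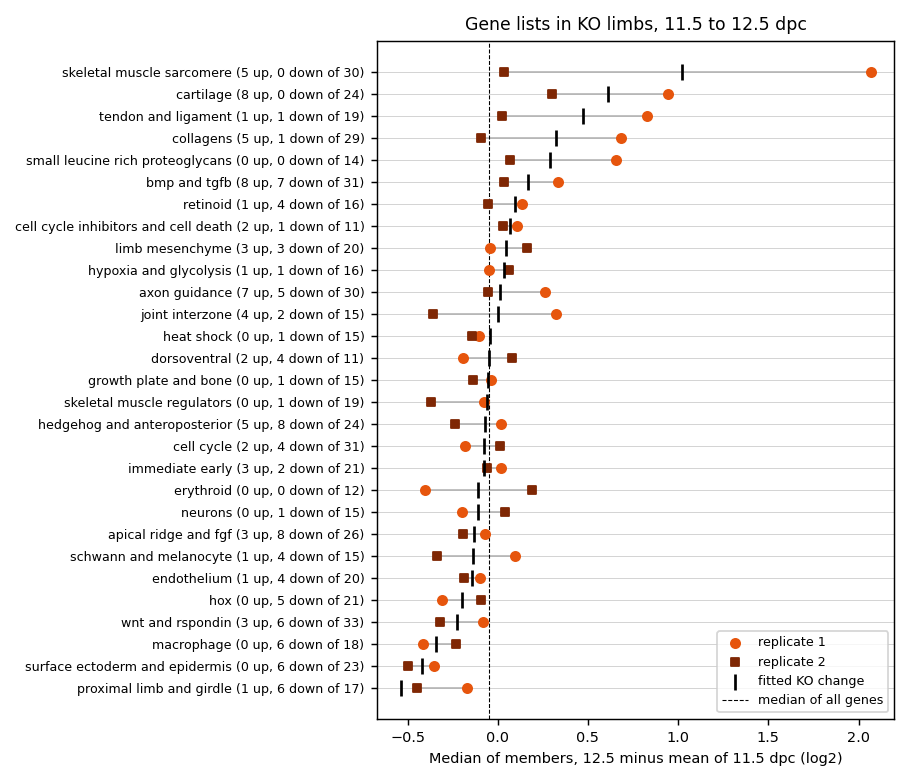
Median change of the members of 29 gene lists in KO limbs (log2 units), for replicate 1 (circles) and replicate 2 (squares) of 12.5 dpc against the mean of both 11.5 dpc arrays, and for the fitted change (vertical ticks); the counts beside each name are genes called up and down. Sarcomere genes are furthest apart, at 2.07 and 0.03, and the fitted median need not lie midway, since it is the median of each gene's own mean.

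The WT limb over the same day showed how much of this the genotypes had in common. In WT limbs 1213 genes rose and 2390 fell (6.67% and 13.1%, or 19.8% together). The KO and WT changes share no array, but both pairs of stages lie in the same scan series. Of the 1131 genes that rose in KO limbs, 595 rose in WT limbs too, which is 52.6% of the KO list and 49.1% of the WT list, and 1107 had the same sign. Of the 1923 that fell, 1417 fell in WT too, 73.7% of the KO and 59.3% of the WT list, and 1875 had the same sign. Across all 18193 genes, which are not independent, the changes of both genotypes had a correlation of 0.782. Ttn rose by 2.36 in KO and 2.50 in WT limbs, Fgf8 changed by -2.13 in both, and Hoxb5 by -2.54 and -2.57.

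The KO replicates could also be set against genes picked in WT alone. Over the 77 genes that rose by at least 1 log2 unit in WT limbs, the median change was 1.32 in WT, 1.57 in KO replicate 1 and 0.52 in KO replicate 2. Over the 125 that fell as far, it was -1.22 in WT, -1.06 in KO replicate 1 and -1.02 in KO replicate 2. Among these large changes, replicate 2 of KO 12.5 dpc thus lay close to replicate 1 for the genes that fell, and well below it for those that rose. Over all 1213 genes that rose in WT limbs the replicates were closer. There the median was 0.49 in WT, 0.41 in KO replicate 1 and 0.35 in KO replicate 2.

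**Figure D4:**
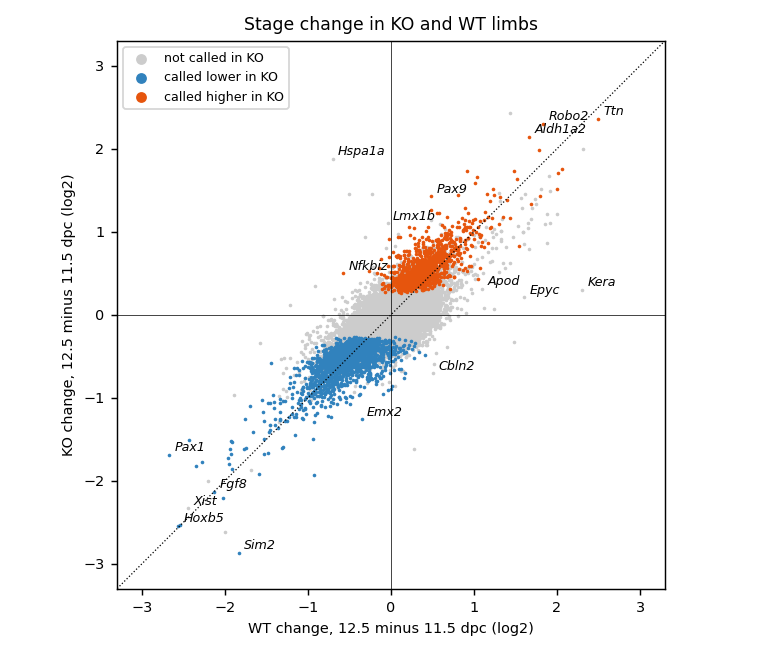
Change from 11.5 to 12.5 dpc of each gene in WT limbs (horizontal, log2 units) against KO limbs (vertical), coloured by the call in KO limbs; the dotted line marks equal change. Ttn, Fgf8 and Hoxb5 lie near the line, and Kera (2.30 in WT, 0.30 in KO) below it.

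When the difference between the KO and WT changes was tested itself, 0 of 18193 genes passed in limma, while 1132 had an unadjusted p under 0.05. None of the changes above is therefore shown to be particular to KO limbs, and a p that misses the threshold does not show that the genotypes change alike. The 5 smallest p belonged to Nfkbiz, Gm19605, Nrap, Bdkrb1 and Clcn2 (adjusted p = 0.254 for Nfkbiz and 0.686 for the others). Nfkbiz, a nuclear regulator of NF-kappaB target genes, was the 1 gene called in opposite directions. It went from 6.92 and 6.90 to 7.28 and 7.53 in KO limbs (0.50, adjusted p = 0.00921) and from 7.26 and 7.17 to 6.62 and 6.66 in WT limbs (-0.58, adjusted p = 0.00432). Without KO 12.5 dpc replicate 1, 38 genes passed this test, with Hspa1a, Hspa1b and the muscle genes Sln, Myl4, Tnnt3, Acta1, Myl1, Mybpc1 and Cav3 among them, and without either 13.5 dpc KO array it was 1. These names were chosen after their values were seen.

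Other genes stood out in size without passing, and were chosen here after their values were seen or for their place on a list. Kera, encoding the proteoglycan keratocan, lay at 6.02 and 6.08, then at 6.37 and 6.34 in KO limbs, and went from 7.65 and 7.77 to 10.01 and 10.03 in WT limbs. The WT rise of 2.30 passed, the KO change of 0.30 did not, and the difference between them had an unadjusted p of 0.00143 (adjusted p = 0.686). Epyc, encoding epiphycan of cartilage, was at 5.13 and 5.09, then at 5.95 and 4.69 in KO limbs, and went from 5.37 and 5.61 to 6.93 and 7.25 in WT limbs. Apod, encoding an apolipoprotein that binds lipids, lay at 6.41 and 6.46, then at 6.75 and 6.74 in KO limbs, and went from 7.19 and 7.44 to 8.33 and 8.50 in WT limbs. Every KO array of these 3 genes was below the WT arrays of its stage. Cbln2, a cerebellin gene, lay at 5.76 and 5.77, then at 5.24 and 4.88 in KO limbs, and at 6.03 and 6.57, then at 6.37 and 7.26 in WT limbs. Pax9 rose by 1.43 in KO limbs, against 0.48 in WT limbs, where it did not pass (adjusted p = 0.0521). Emx2 fell by 1.26 in KO limbs, against -0.35 in WT limbs. Sim2 changed by -2.87 in KO and -1.84 in WT limbs, and Pax1 by -1.69 and -2.67. Adgre1 fell by 0.67 in KO limbs and lay at -0.07 in WT limbs. For these genes too the difference between genotypes did not pass (adjusted p of at least 0.686).

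**Figure D5:**
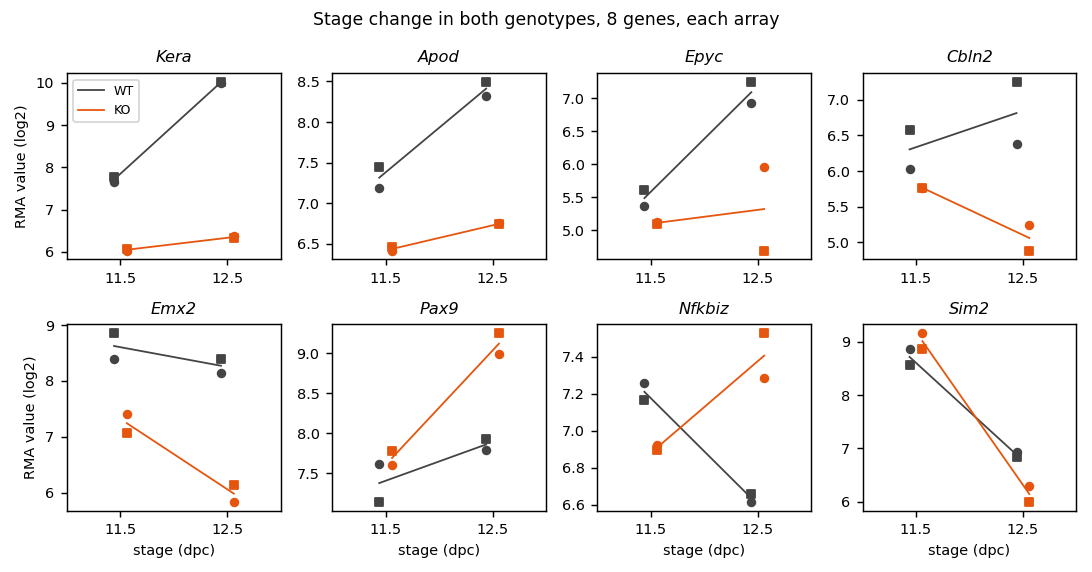
RMA values (log2 units) of 8 genes at 11.5 and 12.5 dpc in WT and KO limbs, with circles for replicate 1, squares for replicate 2 and lines joining the means. Kera reaches 10.01 and 10.03 in WT limbs and 6.37 and 6.34 in KO limbs at 12.5 dpc, and Sim2 falls in both genotypes.

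The arrays of 13.5 dpc, made from the distal limb alone, are set beside the earlier stages as a description. Of the 1131 genes that rose in KO limbs, 925 (81.8%) had a KO 13.5 dpc mean nearer to the 11.5 than to the 12.5 dpc mean, and of the 1923 that fell 1399 (72.8%). These counts share the 11.5 and 12.5 dpc arrays with the choice of genes, and no share over all genes was taken. They therefore do not show that the 12.5 dpc level was lost. In WT limbs, whose arrays entered the choice through the spread and the choice of probe sets, the counts were 742 (65.6%) and 1210 (62.9%). Among the 66 that rose and 100 that fell by at least 1 log2 unit, the shares were 72.7% and 62% in KO limbs. In WT limbs they were 47.0% and 45%. Of the 15 largest named rises and 15 falls it was 13 and 7 in KO limbs. Ttn had means of 7.18, 9.54 and 7.10 at the 3 stages in KO limbs and 7.21, 9.71 and 7.38 in WT limbs, and Robo2 4.22, 6.51 and 4.66 in KO limbs. Aldh1a2 stayed high, at 8.17, 10.31 and 10.68, as did Cytl1 at 6.21, 7.96 and 8.79. Cyb561 and Fap were low at 12.5 dpc only, with means of 7.17, 5.30 and 7.20, and of 8.39, 6.72 and 8.26. Stage, dissected part and scan series cannot be told apart in these values.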

How the data were processed

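The authors deposited a table of log2 values for 45101 probe sets on an Affymetrix mouse genome array. Per the submitters' processing notes the tool was RMA, of unstated version. The method brings all arrays to nearly 1 distribution (sorted columns differ by at most 0.242), so a shift shared by most genes would be hidden, and it compresses changes of dim probe sets. Scanner files were not used here, and the number of arrays limits the precision. The 64 control probe sets were left out. Names came from the platform's annotation: 34945 probe sets name 1 gene, 932 several and 9160 none there, and 34741 matched the RefSeq gene table by identifier, with 0 symbols changed. The brightest probe set over the 12 arrays stood for each of 18193 genes, of which 9010 have several.

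Group means of all 12 arrays were fitted with limma 3.58.1 in R 4.3.3 (6 residual and 4.22 prior degrees of freedom, two-sided tests, adjusted p threshold 0.05). The procedure was tested on simulated data with independent genes and the same spread in all groups. A pair as unequal as that of KO 12.5 dpc was not simulated. The genes named were, per direction, up to 15 with the largest called change, both later arrays beyond both earlier ones and a mean above the median of all values. Added to these were the 5 smallest p for the difference between genotypes, 8 genes per direction for the gap between KO 12.5 dpc arrays, and per list up to 6 members with the largest change and any further called member. Other names are said to have been chosen after their values were seen, or serve as markers. The 29 lists hold 629 entries, 591 measured, over 581 genes, so some genes are on several lists. The comparison, lists and naming rule were chosen with earlier results of these data known. Alternatives were other limma settings, array sets, probe set choices, filters and scalings, a replicate block and leaving out each array. In the last, a lone array is assumed to vary like the other groups. Promoter sequences are RefSeq's (GRCm38.p6).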

Additional observations from a re-analysis of the deposited data

How the results depend on the processing

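Counts of called genes are given as higher and lower in KO limbs, then higher and lower in WT limbs. They were 1131, 1923, 1213 and 2390 as reported. Fitted to the 4 arrays of a genotype alone, limma called 0 and 0 in KO limbs (1744 and 3093 at an unadjusted p under 0.05), and the difference between genotypes could not be fitted. With all probe sets tested, 1997 genes were higher in KO and 1992 in WT limbs. With a log2 change of at least 1 asked for, the counts were 66, 100, 77 and 125. Without the replicate 2 arrays of KO 12.5 and KO 13.5 dpc together, they were 1990 higher in KO limbs, and 2229 higher and 3721 lower in WT limbs. Leaving out 1 array at a time, they ran from 204 to 1550, from 258 to 2228, from 174 to 1761 and from 640 to 2965. The difference between genotypes gave 0 to 38 genes when leaving out 1 array, and 1 from the 8 arrays of 11.5 and 12.5 dpc or without both replicate 2 arrays. With the replicate number as a block, 1027 genes were higher and 1810 lower in KO limbs. The deviations of replicate 1 from its group mean correlated between -0.193 and 0.187 over 15 pairs of groups, 4 of them over 0.1. Whether the replicate numbers pair the samples was not tested. The other settings kept all counts within 1.5 times. Of the results on named genes and lists, 4082 kept their side of the threshold or moved by less than the spread of the replicates, 501 were weaker and 169 stronger. Counting only genes that were called as reported or under the alternative, the change in KO limbs turned negative in 5 cases, and of these Bcl2l11 was called as reported. Genes called under neither, such as Myl4 without KO 12.5 dpc replicate 1 (-0.38), also changed sign. Without KO 12.5 dpc replicate 1 it was -0.96 for Col14a1, -1.21 for Agtr2 and -0.67 for Phex, and leaving out KO 12.5 dpc replicate 2 gave 2.30 for Col14a1 and 1.36 for Agtr2. Without both replicate 2 arrays it was -0.84 for Snhg3, and for the mean of probe sets -0.21 for Bcl2l11. The cause was not tested. Dim genes below the median of all values are limited by background.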
